A study of Drosophila melanogaster with 19 samples.

Results

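Proteasome subunit transcripts were followed through RNA bound by Armitage (Armi) and small RNA bound by Piwi in ovarian somatic cells (OSC), a Drosophila line derived from follicle cells of the ovary. The members are the transcripts whose symbol starts with Prosalpha, Prosbeta, Rpn or Rpt, or with Pros and a digit. The rule found 31 lines, and 30 members remained after 1 repeated line was dropped, of 12013 transcripts with a symbol. By symbol, 20 are standard subunits, namely 3 alpha, 5 beta, 3 Rpt and 9 Rpn. The other 10 are second-copy paralogs, genes that arose as extra copies of a subunit. Their symbols end in T or in R, some with a number after the R. In the reference gene list 18 further symbols match the same rule, so the members are only a part of the genes that fit it. Those 18 were not analysed here.

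Armi is an RNA helicase that carries piRNA precursors. Myc-tagged Armi with the substitution D862A or R949A, or of wild-type (WT) sequence, was transfected and recovered with anti-Myc antibody, so that tag and transfection are shared by these 3 groups. Whether their cells kept their own Armi is not given in the sources used here. Further groups were cells treated with Yb RNAi against cells treated with EGFP RNAi (control KD), Zuc RNAi against EGFP RNAi, and untreated cells. iCLIP reads RNA crosslinked to Armi with UV, while CLIPPARE joins an adapter to the 5′ ends of Armi-bound RNA before RNase T1 is added. Per the labels each Armi group had 2 libraries, but the knockdown iCLIP and Myc-Armi iCLIP are deposited as 1 column per condition, and Piwi small RNA had 1 library per condition. Values in these single columns have no replicate check. Their intervals are 95% exact binomial intervals on reads, which cover counting error only and not spread between libraries or cultures. Since PCR copies are not independent molecules, even counting error may be understated. The Piwi library titled Yb KD carries the genotype label EGFP RNAi, and an anti-Myc antibody is listed for it and for its control, so a direction drawn from these libraries rests on their titles. All groups come from 1 cell line, and nothing in the labels says whether the 2 libraries of a group came from separate cultures.

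The proteasome is the large protease that degrades ubiquitin-tagged proteins. Its core is a stack of alpha rings, which gate the entry, and beta rings, which hold the cutting sites. A regulatory cap is built from Rpt subunits, the ATPases that unfold substrates, and Rpn subunits, which bind and trim ubiquitin chains and form the lid. The subunits are housekeeping proteins made in nearly every cell. Piwi, by contrast, carries piRNAs, small RNAs that silence transposons and are cut in OSC from long precursors and from the ends of some mRNAs.

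Values are given as RPM (reads per M reads), and the depth behind a column was 0.813 to 10.4 M reads. Between 12.8 and 63.8% of the reads of a column lay in its table. The 8 markers of somatic ovary cells were above 0 in both untreated Armi libraries, with summed levels of 3839 and 3519 RPM. Most of this was tj, with 3040 and 2754 RPM, and the lowest was Fas3, with 4.59 and 3.25 RPM. Of 8 germline markers found, 6 were above 0 in both, with sums of 8.03 and 5.83 RPM. Of 6 hemocyte markers found, 3 were above 0 in both, and the 6 summed to 44.3 and 47.9 RPM. Most of this was crq, with 35.1 and 34.7 RPM, followed by srp with 7.46 and 10.3 RPM, while Hml and He were at 0. Of 7 testis markers, 2 were above 0 in both, with sums of 1.86 and 1.91 RPM. The knocked-down gene fs(1)Yb had 23.8 RPM in Yb KD against 269 RPM in control KD in Armi iCLIP, and 44.5 RPM in the Piwi library titled Yb KD against 29.5 RPM in its control. The transcript of zuc had 0.343 and 2.10 RPM in Zuc KD against 1.15 and 3.72 RPM in control KD in CLIPPARE, too few reads to check the knockdown. In bulk cultures, fewer cells of a type and less RNA per cell cannot be told apart, and neither can more binding and more mRNA, since no measurement of total mRNA was used here.

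In untreated cells the members carried little Armi signal and less Piwi signal. The members together had 138 and 125 RPM in the 2 Armi iCLIP libraries, which was 0.0718% and 0.0702% of the reads in the table. The authors' tables sort transcripts by piRNA level, and 23 members were in the Low class, 7 in the Zero class and none in the High or Middle class. For comparison, 45.7% of transcripts with a symbol were Low and 46.2% were Zero. The members lie on all large chromosome arms, 10 on 3R, 7 on 2R, 5 on 2L, 5 on 3L and 3 on X.

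The lid subunit Rpn6, which in yeast and mammals clamps the lid to the core, had 24.2 and 16.7 RPM in the untreated Armi libraries (20.5 ± 5.32, SD, n = 2). The base scaffold Rpn2 had 13.2 and 10.1 RPM (11.6 ± 2.19). The lid subunits Rpn5, Rpn12 and Rpn7 lay close together, with means of 8.87 ± 1.45, 8.21 ± 0.353 and 7.84 ± 0.467 RPM. The ATPases Rpt3 and Rpt1 had 8.19 ± 2.05 and 7.72 ± 0.445 RPM, and the core subunit Prosbeta3 had 7.49 ± 0.762 RPM. RPM are not divided by transcript length, so these levels do not rank the genes, and apart from Rpn6 and Rpn2 the 2 libraries of each gene overlapped with those of others named here. The remaining standard subunits that had reads averaged 2.28 RPM (Prosalpha5) to 6.43 RPM (Rpt4).

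**Figure D1:**
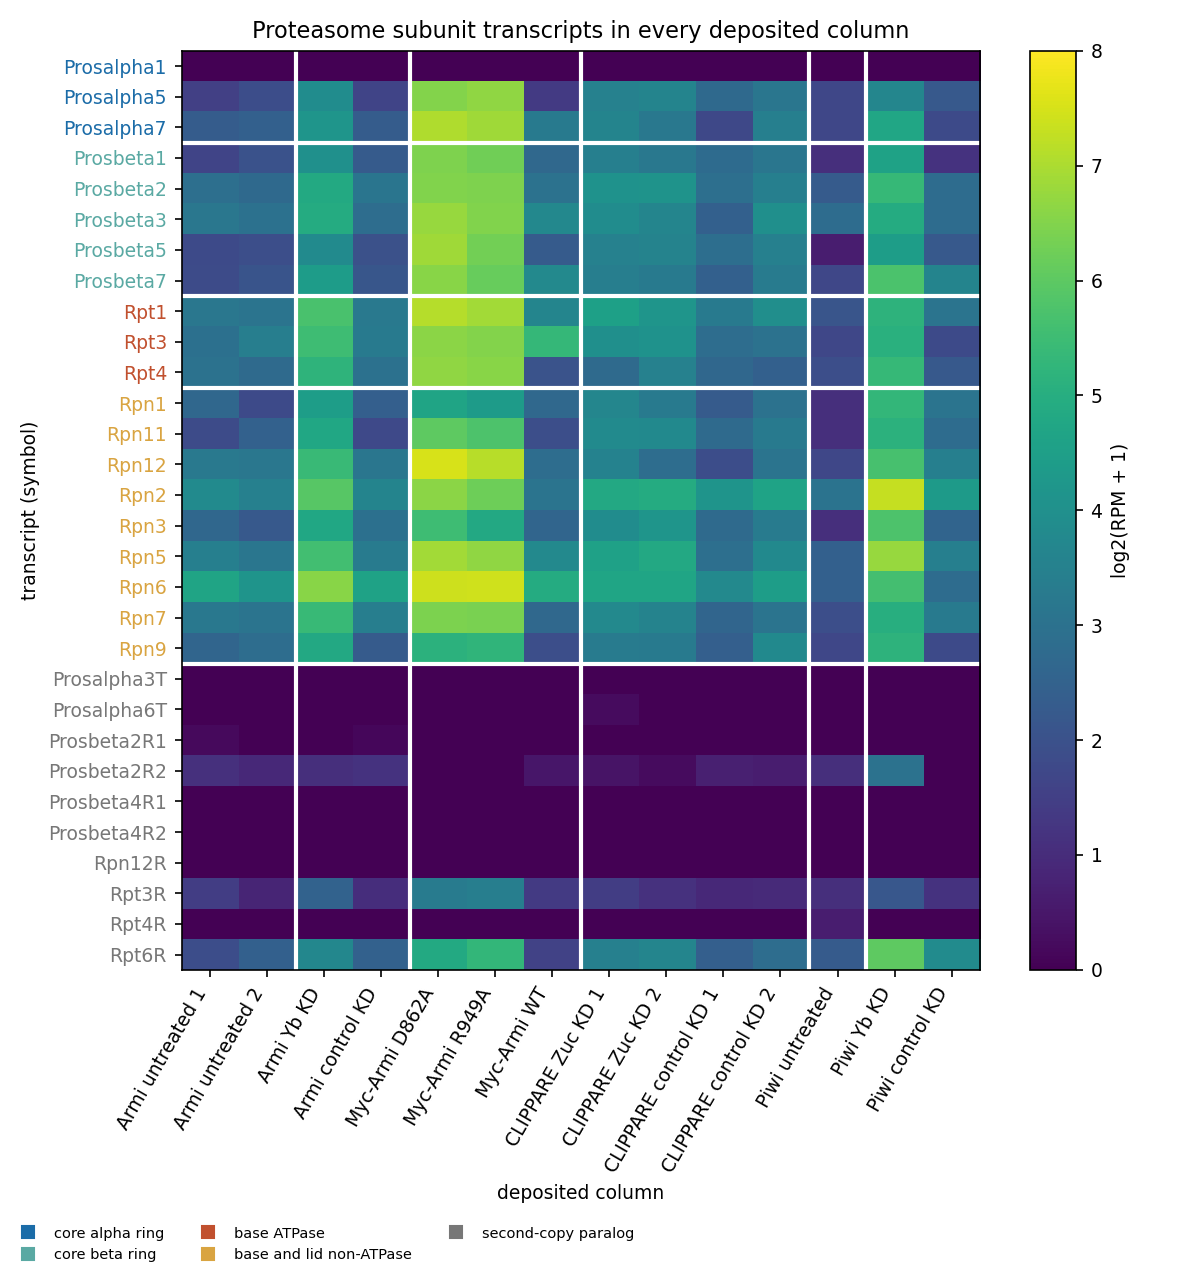
Heat map of log2(RPM + 1) for the 30 proteasome transcripts (rows, coloured by subunit role) in the 14 deposited columns (white lines part the experiments). The standard subunits other than Prosalpha1 had reads in every column and most were brightest in the D862A and R949A columns, while most second-copy paralogs stayed at or near 0.

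Prosalpha1, a subunit of the core alpha ring, was listed at 0 in all 14 columns. Its transcript is given at 2 loci, and so is that of CG30382, a near copy that the reference list now names Prosalpha1R and that was also at 0 in every column. Of the 63 transcripts given at more than 1 locus, 52 were at 0 in every column, against 19.0% of all transcripts with a symbol. How reads with several hits were counted is not given in the sources used here, so the 0 of Prosalpha1 gives no level.

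The second-copy paralogs were mostly unread. Prosalpha3T, Prosbeta4R1, Prosbeta4R2 and Rpn12R were at 0 in every column, which allows up to 0.288 RPM in the deepest column and 3.69 RPM in the shallowest. Prosalpha6T, Prosbeta2R1 and Rpt4R had at most 1 read in any column. Rpt6R was the exception, with 2.72 and 4.49 RPM in the untreated Armi libraries and 3.91 RPM in Piwi small RNA. No Rpt6 transcript is among the members to set beside it. Rpt3R had 1.72 and 0.785 RPM and Prosbeta2R2 had 1.15 and 0.897 RPM in the same Armi libraries. The testis markers can, sa, aly, dj and Mst87F were at 0 in the untreated Armi libraries. The testis markers mia and topi were not, with 1.00 and 0.561 RPM for mia and 0.860 and 1.35 RPM for topi. Reads that fit both a paralog and its parent gene may be split between them.

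The substitutions in Armi address which RNAs the altered protein holds. Proteasome transcripts had far more signal on both mutants than on WT Myc-Armi. The members summed to 1908 RPM on D862A and 1673 RPM on R949A, against 187 RPM on WT, which is 10.2-fold (9.33 to 11.2) and 8.96-fold (8.17 to 9.85) higher. Both mutants are set against the same WT column of 2.54 M reads, in which the members had 475 reads. The share of reads that lay in the table also differed, at 63.3% in D862A and 63.8% in R949A against 33.2% in WT. As a share of the reads in the table, the members made up 0.301% in D862A and 0.262% in R949A against 0.0562% in WT, which is 5.36-fold and 4.66-fold higher.

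In the core, Prosalpha5 had 90.7 RPM on D862A and 100.2 RPM on R949A, against 1.57 RPM on WT, where it had 4 reads. That is 57.7-fold (22.4 to 212) and 63.7-fold (24.8 to 235) higher. Prosalpha7, also of the alpha ring, had 132 and 115 RPM on the mutants against 8.64 RPM on WT. Both alpha subunits were low on WT and high on each mutant.

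Prosbeta5, which carries the chymotrypsin-like site, had 115 RPM on D862A and 78.2 RPM on R949A, against 3.93 RPM on WT, so that it was 29.4-fold (15.9 to 61.5) and 19.9-fold (10.7 to 41.8) higher. Prosbeta1 and Prosbeta2, the caspase-like and trypsin-like sites, had 87.2 and 88.6 RPM on D862A, 75.6 and 87.5 RPM on R949A, and 5.50 and 7.07 RPM on WT. Of the subunits without a cutting site, Prosbeta3 had 107 RPM on D862A and 87.9 RPM on R949A against 12.2 RPM on WT. Prosbeta7 had 94.2 and 68.9 RPM on the mutants against 12.6 RPM on WT. Its ratio on D862A, 7.49-fold (5.25 to 11.1), was lower than that of Prosbeta5, and its interval overlapped that of Prosbeta2 (7.85 to 21.3).

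Among the ATPases of the base, Rpt4 had 102 RPM on D862A and 94.4 RPM on R949A, against 3.14 RPM on WT, which is 32.3-fold (16.3 to 75.1) and 30.0-fold (15.1 to 69.9) higher. Rpt1 had 138 and 119 RPM against 11.4 RPM, 12.2-fold and 10.4-fold higher. Rpt3 stood apart from both. It had 96.3 RPM on D862A and 90.9 RPM on R949A, in the range of the others, but 39.3 RPM on WT from 100 reads. Its ratios were therefore 2.45-fold (1.98 to 3.06) and 2.31-fold (1.86 to 2.89), below the median of all transcripts in both comparisons. In the untreated and control KD Armi columns, which lie in other tables, Rpt3 had 6.74 to 9.64 RPM.

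Of the cap subunits without ATPase activity, Rpn12, which in yeast joins the lid last, had 184 RPM on D862A and 141 RPM on R949A, against 6.29 RPM on WT, or 29.2-fold (17.9 to 51.3) and 22.4-fold (13.7 to 39.3) higher. Rpn11, the deubiquitinase that cuts chains off substrates, had 64.1 and 53.5 RPM on the mutants against 2.75 RPM on WT. The lid subunit Rpn6 had 169 RPM on D862A and 171 RPM on R949A against 29.5 RPM on WT, and was 5.72-fold (4.52 to 7.33) and 5.82-fold (4.60 to 7.46) higher. Rpn3, another lid subunit, had 44.6 and 27.2 RPM on the mutants against 5.11 RPM on WT. Rpn1, the base scaffold on which ubiquitin receptors dock, had 24.2 and 20.2 RPM on the mutants against 5.50 RPM on WT.

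**Figure D2:**
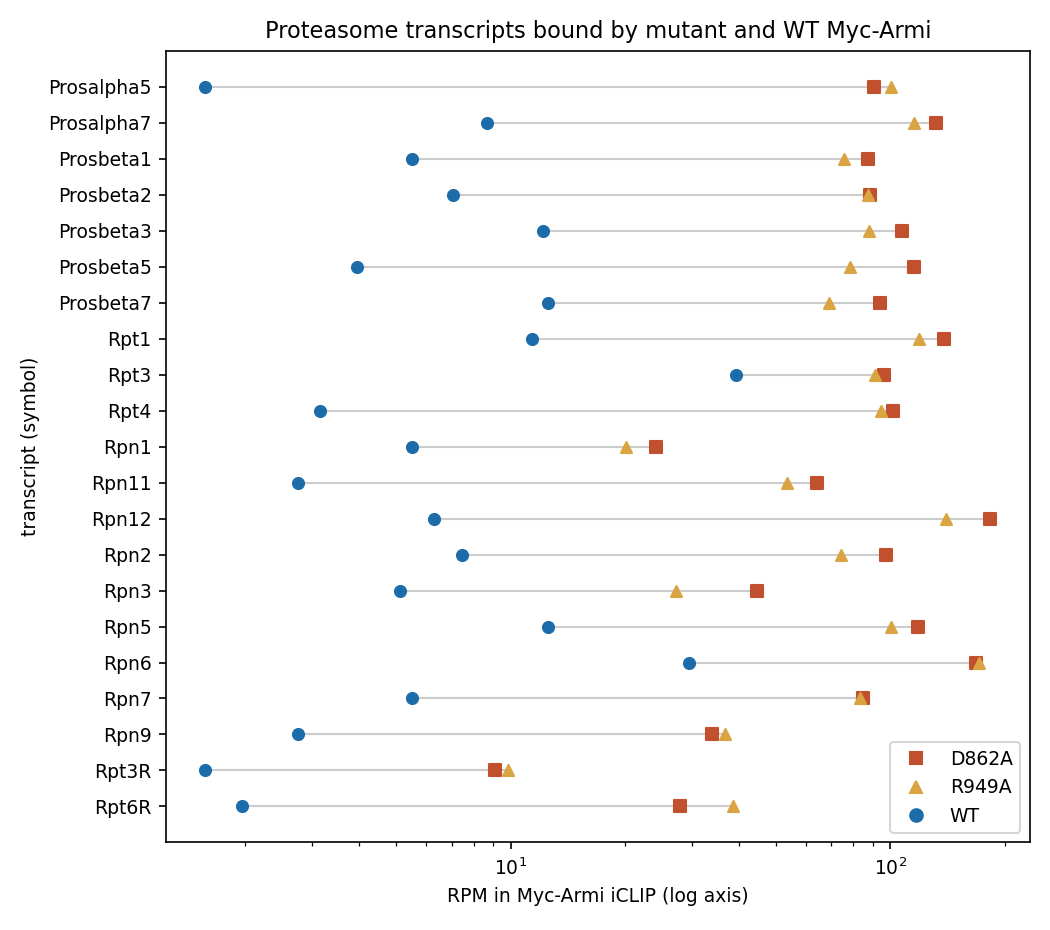
RPM (log axis) of the 21 proteasome transcripts that passed the filter of 5 RPM, on D862A (squares), R949A (triangles) and WT (circles) Myc-Armi, 1 column each. Every WT point lies left of both mutant points, Prosalpha5 spans the widest gap (1.57 RPM on WT) and Rpt3 the narrowest (39.3 RPM on WT).

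A mean of at least 5 RPM over the columns compared was reached by 21 members in each mutant comparison. Of these, 7 were below 5 RPM on WT and passed only through the mutant column, so that they had to differ, and 6 of them are among the members counted at 8-fold in each comparison. At a ratio of 8-fold or more on the log2(RPM + 1) scale, 15 of the 21 were higher on D862A, against 21.1% of 4585 transcripts. The count was 13 of 21 for R949A, against 19.4% of 4473 transcripts. At 2-fold or more it was 21 of 21 on each mutant, where the backgrounds were 67.6% for D862A and 67.2% for R949A. Intervals lay wholly above 1 for 21 of 21 on each mutant, against 80.4% of transcripts in both. The 8-fold limit was chosen after the values had been seen.

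The median log2 ratio of these members was 3.47 for D862A, beside 1.73 for all transcripts that passed, and 3.33 for R949A, beside 1.68. The interquartile range of the members was 2.90 to 3.78 for D862A, whereas that of the table ran from 0.67 to 2.81. For R949A the 2 ranges overlapped, at 2.50 to 3.73 for the members and 0.66 to 2.74 for the table. Set beside other transcripts of like RPM, the members lay higher by a median of 1.67 (D862A) and 1.63 (R949A), with 18 of 21 above their bin in each. Low-class transcripts had medians of 2.00 and 1.97. The 81 cytosolic ribosomal protein transcripts that passed, another set of housekeeping mRNAs, had medians of 3.34 and 2.95, close to those of the proteasome transcripts. Among the roles, the median log2 ratio on D862A was 4.47 for 2 alpha subunits, 3.47 for 5 beta subunits, 3.49 for 3 ATPases and 3.22 for 9 Rpn subunits. The paralogs Rpt6R and Rpt3R had 27.9 and 9.08 RPM on D862A, 38.4 and 9.82 RPM on R949A, and 1.96 and 1.57 RPM on WT, while Prosbeta2R2 had 1 read on WT and none on the mutants.

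**Figure D3:**
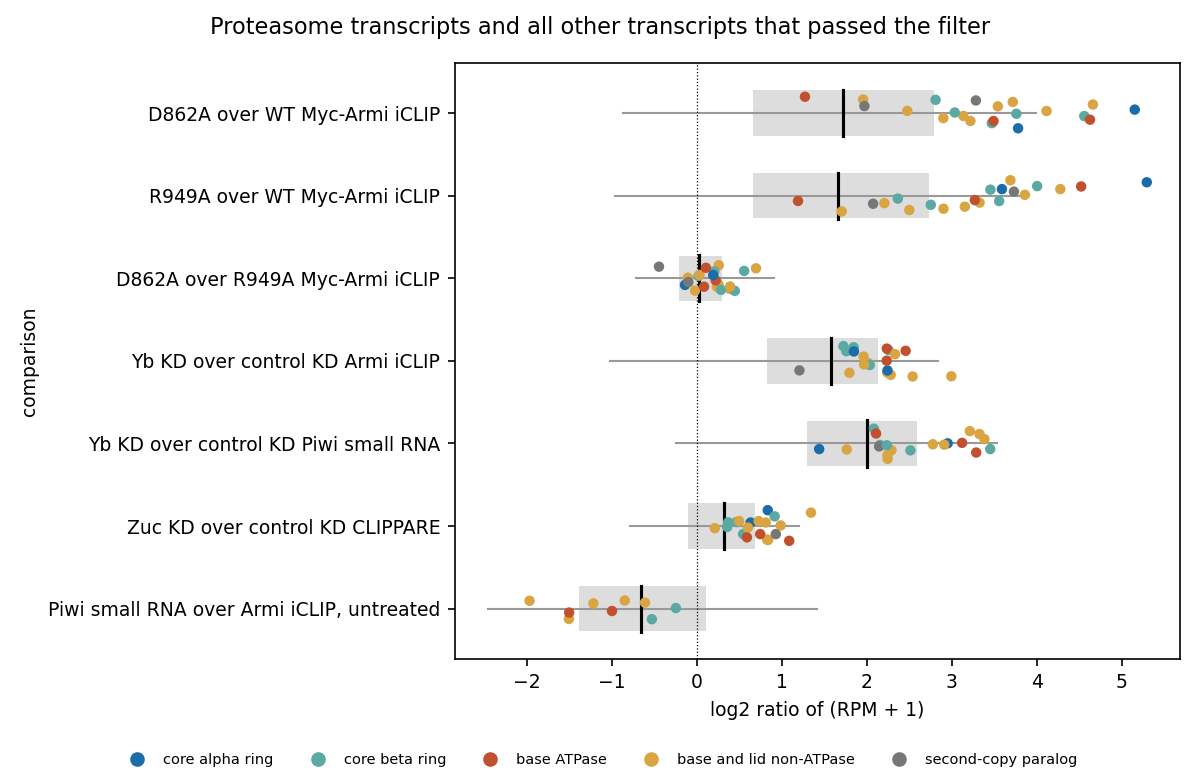
Log2 ratio of (RPM + 1) in 7 comparisons (rows) for the proteasome transcripts that passed the filter (points, coloured by role) and for all other transcripts that passed (grey box from the 25th to the 75th percentile, black line at the median, thin line from the 5th to the 95th percentile). The points lie mostly right of the box for D862A and R949A over WT (member medians 3.47 and 3.33). For Yb KD Armi iCLIP and Zuc KD CLIPPARE the member medians (2.134 and 0.734) lie just past its right edge (2.126 and 0.685). In the remaining comparisons the points overlap the box. The points are spread vertically only to part them.

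The mutants were also set against each other, a comparison added after the values had been seen. The members summed 1.14-fold (1.11 to 1.17) higher on D862A than on R949A. None of the 21 members differed by 2-fold or more either way, where 3.73% of 4963 transcripts were that much higher on D862A and 1.83% lower. Rpn3 differed most, with 44.6 RPM on D862A against 27.2 RPM on R949A, 1.64-fold (1.34 to 2.01). Prosbeta5 was 1.47-fold (1.31 to 1.66) and Prosbeta7 was 1.37-fold higher on D862A. Rpt6R ran the other way, with 27.9 RPM on D862A against 38.4 RPM on R949A, a ratio of 0.726 (0.592 to 0.890). Rpn6 had a ratio of 0.984 (0.901 to 1.07), an interval that spans 1. With 1 column per mutant, none of these intervals covers the spread between libraries. Intervals lay wholly above 1 for 11 of 21 members (27.8% of transcripts) and below 1 for 1 (24.3%).

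Knockdown of Yb, a partner of Armi in piRNA biogenesis, addresses which RNAs Armi binds when Yb is depleted. Proteasome transcripts had more Armi signal after Yb KD. The members summed to 671 RPM in Yb KD against 140 RPM in control KD, 4.78-fold (4.49 to 5.09) higher. Reads in the table were 34.2% of the total in Yb KD against 20.5% in control KD. As a share of the table, the members made up 0.196% in Yb KD against 0.0684% in control KD, a ratio of 2.87.

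Among the ATPases, Rpt1 had 50.8 RPM in Yb KD against 8.44 RPM in control KD, 6.02-fold (4.69 to 7.80) higher. Rpt3 had 44.8 RPM against 8.73 RPM and Rpt4 had 36.2 RPM against 6.90 RPM. The intervals of these 3 overlapped. The beta subunits ran from 3.69-fold (2.77 to 4.95) for Prosbeta2 to 5.86-fold (3.94 to 8.89) for Prosbeta7. The alpha subunits Prosalpha5 and Prosalpha7 were 6.5-fold (3.94 to 11.1) and 4.24-fold (2.87 to 6.34) higher in Yb KD.

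The base scaffold Rpn2 had 60.1 RPM in Yb KD against 11.1 RPM in control KD, 5.40-fold (4.33 to 6.77). The lid subunit Rpn6 had 94.0 RPM against 23.4 RPM, 4.02-fold (3.42 to 4.73). The lid subunits Rpn12, Rpn5 and Rpn7 were 5.36-fold, 5.14-fold and 4.21-fold higher. The deubiquitinase Rpn11 had the largest ratio of the 20 members that passed, with 26.1 RPM in Yb KD against 2.40 RPM in control KD, 10.9-fold (7.02 to 17.5). Rpn9 of the lid followed, with 27.7 RPM against 3.93 RPM, 7.04-fold (4.91 to 10.3). The paralog Rpt6R had the lowest ratio of the 20, with 11.9 RPM in Yb KD against 4.60 RPM in control KD, 2.59-fold (1.72 to 3.91). Prosbeta2R2, which did not pass, had 1.12 RPM in Yb KD against 1.25 RPM in control KD.

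At 2-fold or more 20 of the 20 members that passed were higher in Yb KD, against 71.1% of 4039 transcripts, and 9 of the 20 were below 5 RPM in control KD and passed only through Yb KD. At 8-fold or more the count was 0 of 20, against 3.34%, since Rpn11 falls just short on the log2(RPM + 1) scale. Intervals lay wholly above 1 for 20 of 20, against 84.4% of transcripts. The median log2 ratio of the members was 2.13, beside 1.58 for the table, 1.72 for Low-class transcripts and 2.45 for 79 ribosomal protein transcripts. Compared with transcripts of like RPM, 19 of 20 lay higher, by a median of 0.52, and Rpt6R lay lower.

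**Figure D4:**
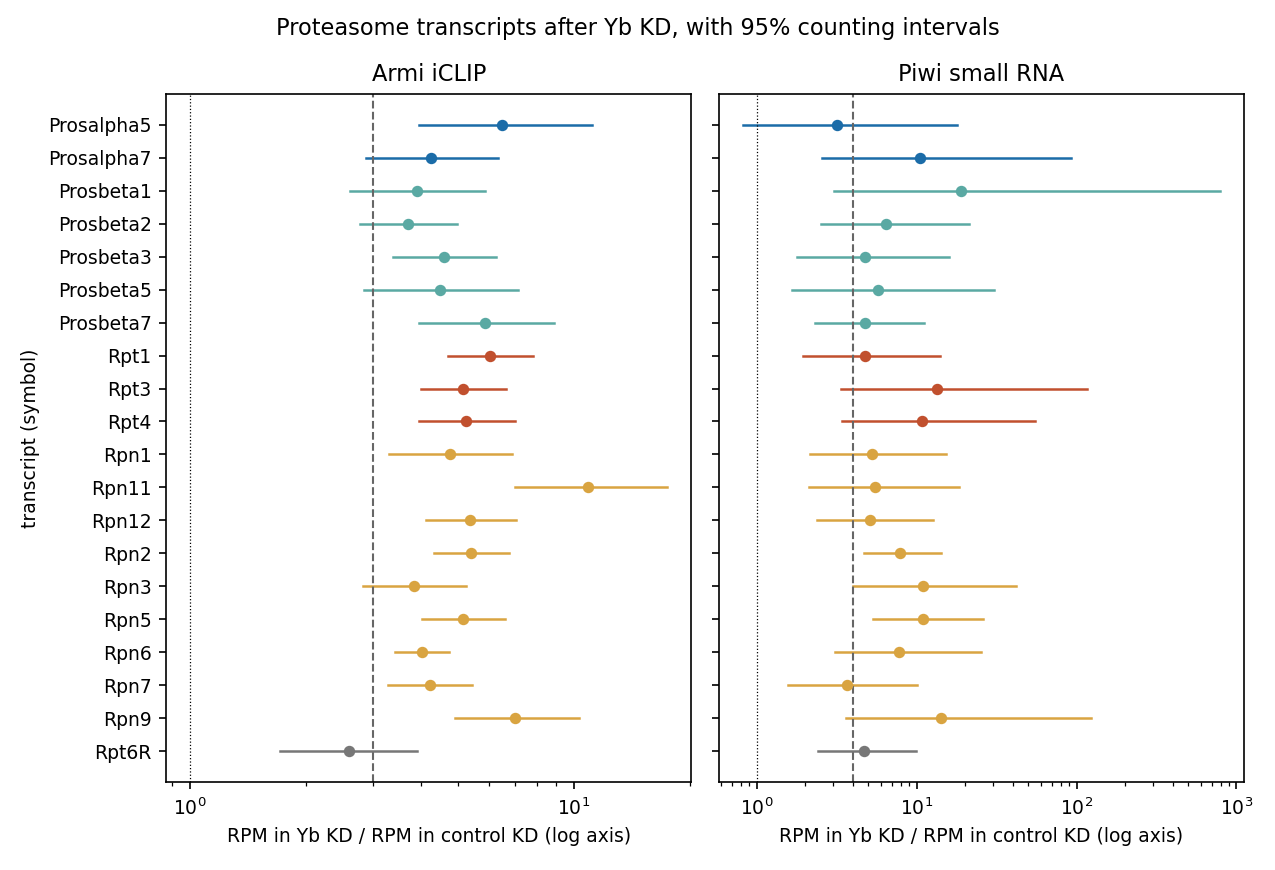
Ratio of RPM in Yb KD over control KD (log axes of different range) for 20 proteasome transcripts in Armi iCLIP (left) and Piwi small RNA (right), with 95% counting intervals and colours by role. The dotted line marks 1 and the dashed line the median of all transcripts that passed (2.99-fold and 4.01-fold). Rpn11 is farthest right in Armi iCLIP at 10.9-fold, and the intervals are far wider in Piwi small RNA, where control KD counts were 1 to 16 reads.

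Piwi-bound small RNA from the members was also higher in the library titled Yb KD. The members summed to 940 RPM from 802 reads in Yb KD against 138 RPM from 112 reads in control KD, 6.82-fold (5.59 to 8.39). Were the titles of these 2 libraries exchanged, the ratio would be 0.147 (0.119 to 0.179), and every ratio, share and count from them would turn the same way. The table held 54.7% of the reads in Yb KD against 18.6% in control KD, and the share of the table taken by the members was 0.172% against 0.0742%, a ratio of 2.31. Rpn2 had 155 RPM in Yb KD against 19.7 RPM in control KD, 7.86-fold (4.66 to 14.1), from 132 and 16 reads. The lid subunits Rpn5 and Rpn3 had 108 and 53.9 RPM in Yb KD, against 9.84 and 4.92 RPM in control KD, both 11.0-fold higher. Their control KD values rest on 8 and 4 reads, and their intervals were 5.33 to 26.1 and 4.00 to 41.9. The ATPase Rpt4 had 39.8 RPM against 3.69 RPM, 10.8-fold (3.39 to 54.9). At the lower end among members of 20 RPM or more, Rpn7 was 3.67-fold (1.56 to 9.99), Rpt6R 4.67-fold, and Rpt1 and Prosbeta7 both 4.76-fold higher. Prosalpha5 had 10 reads in Yb KD and 3 in control KD, and its interval of 0.817 to 18 spans 1. Prosbeta2R2 had 7.03 RPM from 6 reads in Yb KD and no read in control KD.

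At 2-fold or more 20 of the 20 members that passed were higher in the library titled Yb KD, against 81.8% of 4924 transcripts. Of the 20, 8 were below 5 RPM in control KD and passed only through the library titled Yb KD, among them 5 of the 6 members at 8-fold or more. At 8-fold or more the count was 6 of 20, against 12.6%, and intervals lay wholly above 1 for 19 of 20, against 77.6%. The median log2 ratio was 2.40 for the members, beside 2.00 for the table, 2.15 for Low-class transcripts and 2.29 for 77 ribosomal protein transcripts. Relative to transcripts of like RPM, 18 of 20 lay higher, by a median of 0.37.

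Piwi small RNA was set beside Armi iCLIP in untreated cells to compare the RNAs that Armi holds with those that become piRNAs. The members summed to 60.3 RPM in Piwi small RNA, from 108 reads, against a mean of 131 RPM in Armi iCLIP. That is 2.16-fold (1.78 to 2.65) lower, with an interval that does not cover the difference between the assays. As a share of the reads in the table they made up 0.0412% in Piwi small RNA, against 0.0718% and 0.0702% in the Armi libraries. Rpn6 had 4.47 RPM in Piwi small RNA against 24.2 and 16.7 RPM in Armi iCLIP. Rpn12 and Rpt3 had 2.23 RPM each in Piwi small RNA, against means of 8.21 and 8.19 RPM in Armi iCLIP. Prosbeta3 differed least among those that passed, with 6.14 RPM in Piwi small RNA against 8.03 and 6.95 RPM in Armi iCLIP. The 9 members that passed had a median log2 ratio of −1.0, beside −0.66 for 2773 transcripts and −1.59 for 75 ribosomal protein transcripts. Of the 9, 5 were 2-fold or more lower in Piwi small RNA, against 37.5% of transcripts. These were Rpn6, Rpn12, Rpt3, Rpn7 and Rpt1. All 5 were below 5 RPM in Piwi small RNA and passed only through Armi iCLIP, so that they had to be lower. The same holds for Rpn5 and Prosbeta2, with 4.47 and 3.91 RPM in Piwi small RNA.

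Zuc is the endonuclease that cuts piRNA precursors, and its knockdown addresses whether Armi-bound 5′ ends depend on it. This was the comparison with 2 library columns per group. Armi-bound 5′ ends of the lid subunits Rpn5 and Rpn3, the ATPase Rpt3 and the trypsin-like Prosbeta2 rose in Zuc KD by limma. The members together had 283.0 and 279 RPM in Zuc KD against 125 and 214 RPM in control KD.

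Rpn5 had 22.6 and 27.7 RPM in Zuc KD against 6.52 and 13.0 RPM in control KD, a log2 change of 1.34 (SE 0.33, limma adjusted p = 0.00175). Rpt3 had 14.7 and 15.8 RPM in Zuc KD against 6.27 and 7.07 RPM in control KD, a change of 1.09 (SE 0.34, limma adjusted p = 0.0182). In both genes the Zuc KD libraries lay well above those of control KD, with no overlap. Rpn3 had 13.9 and 17.0 RPM in Zuc KD against 5.75 and 9.11 RPM in control KD, a change of 0.99 (SE 0.34, limma adjusted p = 0.0332). Prosbeta2 had 15.8 and 16.3 RPM in Zuc KD against 6.52 and 9.86 RPM in control KD, a change of 0.91 (SE 0.34, limma adjusted p = 0.0466). These groups did not overlap either.

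**Figure D5:**
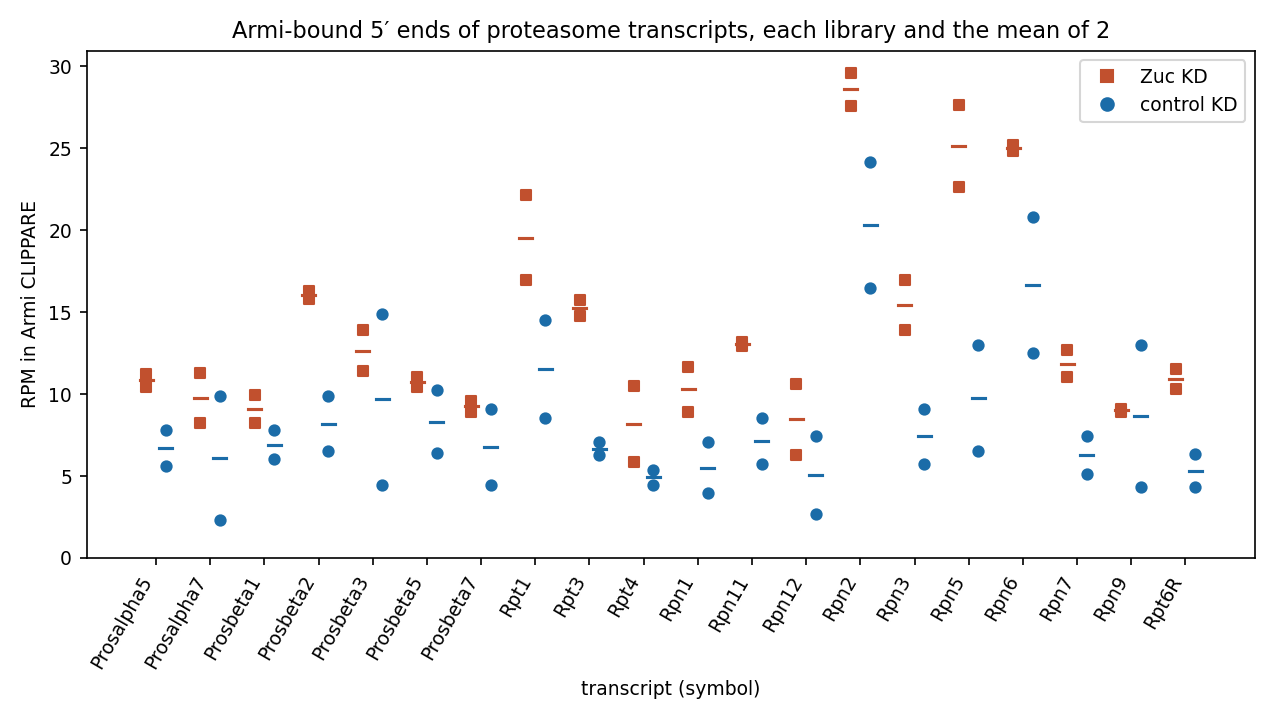
RPM in Armi CLIPPARE for the 20 proteasome transcripts that passed the filter, in 2 Zuc KD libraries (squares) and 2 control KD libraries (circles), with the mean of each group as a bar. Rpn5 has the largest gap between the groups, and in Rpn9 a control KD library (13.0 RPM) lies above both Zuc KD libraries.

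Of 20 members tested, 4 rose and 0 fell, against 11.8% of 4006 transcripts that rose and 2.77% that fell. At an unadjusted limma p under 0.05 the count was 10, against 30.5% of transcripts in either direction. None of the 20 was lower on average in Zuc KD, though Rpn9 was lower with edgeR, DESeq2 and centring. Most other transcripts were higher as well, the 25th and 75th percentiles of the log2 change of these 3986 being −0.10 and 0.68. The Zuc KD and control KD libraries did not overlap for 15 of the 20, with Zuc KD higher, against 47.6% of transcripts. Rpt6R had 10.3 and 11.6 RPM in Zuc KD against 4.35 and 6.32 RPM in control KD, with a limma adjusted p of 0.0644. At the low end, Rpn9 had 9.09 and 8.93 RPM in Zuc KD against 4.35 and 13.0 RPM in control KD, with a log2 change of 0.21 and a limma adjusted p of 0.719. The median change of the 20 was 0.73, beside 0.33 for the table, 0.41 for Low-class and 0.21 for ribosomal protein transcripts, and 17 of 20 lay above transcripts of like RPM.

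The control KD libraries differed from each other, replicate 2 being higher than replicate 1 by a median log2 of 0.48 over all transcripts and 0.60 over the members, and the part of this in the result was not tested. Without control KD replicate 1, 2 members were past the limma threshold, where 18.1% of all transcripts were called higher. Without control KD replicate 2, 17 members were past it, where 45.6% of all transcripts were called higher. Without Zuc KD replicate 1 or replicate 2 none of the 20 was, where 0.358% and 0.433% of all transcripts were called higher. With edgeR 3 members were called (11.3% of transcripts higher), with DESeq2 1 (5.82%) and with libraries centred on their median 2 (9.46%). Rpn5 was past the threshold with edgeR, DESeq2 and centring, but not without a filter (limma adjusted p = 0.0960). Rpt3 was called with edgeR and with centring, Rpn3 with edgeR alone, and Prosbeta2 in none of them.

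Other genes of the ubiquitin and proteasome pathway were taken as a list of 40 names, of which 22 were found. In Zuc KD CLIPPARE 17 were tested, of which 2 rose and 0 fell, against 11.8% of all transcripts that rose, and the median log2 change was 0.23, beside 0.33 for the table. CG5384, a ubiquitin protease gene related to mammalian Usp14, had 15.3 and 17.7 RPM in Zuc KD against 6.52 and 8.93 RPM in control KD (log2 change 1.01, limma adjusted p = 0.0266). The ubiquitin-conjugating enzyme eff had 29.2 and 33.4 RPM in Zuc KD against 11.6 and 17.9 RPM in control KD (1.06, limma adjusted p = 0.0166). On D862A over WT the 20 listed genes that passed had a median log2 ratio of 2.25, beside 1.73 for the table. Of these, 6 were 8-fold or more higher, against 21.1% of transcripts. Among the 6, Keap1 (0.786 RPM on WT) and maf-S (0 RPM on WT) passed only through D862A, so that they had to be higher. RpL40 and RpS27A, also among the 6, belong to the ribosomal protein set as well. CG8858 was the listed gene that was lower on both mutants, with 17.9 RPM on D862A and 8.77 RPM on R949A against 25.5 RPM on WT. Pomp, the chaperone of core assembly, had 179 RPM on D862A and 147 RPM on R949A against 16.9 RPM on WT. Ubqn, a ubiquitin shuttle whose transcript is in the High class, had 772 RPM on D862A and 725 RPM on R949A against 416 RPM on WT. TER94, the fly p97 segregase, had 846 and 925 RPM on the mutants against 254 RPM on WT. After Yb KD the 19 that passed had a median of 1.89 in Armi iCLIP, beside 1.58 for the table. Of these, 17 were higher in Yb KD, against 88.1% of transcripts. The shuttle Rad23 was lower, with 124 RPM in Yb KD against 234 RPM in control KD. The listed gene lwr was slightly lower, with 6.52 RPM in Yb KD against 7.10 RPM in control KD. The list median was 2.09 in Piwi small RNA of Yb KD over control KD, beside 2.00 for the table.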

How the data were processed

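The files hold RPM for each FlyBase transcript, computed by the authors. Per the submitters' processing notes, cutadapt, STAR and dm6 were used. Versions, counting, duplicate removal and the treatment of strand and of several hits are not given in the sources used here. The authors' RPM values were whole multiples of 1 step per column (100% lay within 0.1 of a read). Whole reads and the depth of each column were recovered from that step. The limma test planned for the Yb KD and Myc-Armi tables could not be run on 1 column per condition. There, ratios used log2(RPM + 1), a mean of at least 5 RPM and exact binomial intervals.

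CLIPPARE was fitted on the whole table in R 4.3.3 with limma 3.58.1, using lmFit and a trended eBayes, on log2(RPM + 1) at a mean of at least 5 RPM, with Benjamini-Hochberg adjustment over all transcripts, two-sided, at 0.05. P-values measure only the spread between these libraries. Like RPM means bins with limits at 5, 10, 20, 50 and 100 RPM. The alternatives changed the pseudocount (0.1 and 5 RPM), the filter (none and 20 RPM), the centring or the trend, added a replicate block, used edgeR 4.0.16 (quasi-likelihood, TMM) or DESeq2 1.42.0 on the reads, or left out a replicate. Same-numbered CLIPPARE libraries had deviations correlated at 0.0485 and were not paired. Scripts used Python 3.11.15 and were tested on simulated data.

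The members, lists and rules were chosen with earlier results of these data known. Named were the 8 members of highest untreated Armi signal, members past the threshold, the 4 largest and 4 smallest ratios at 20 RPM or more, and paralogs reaching 5 RPM. Others were named for their role or after their values were seen. All 30 symbols were in the reference list (Release 6), on the same arm, but the locus end equalled that of the reference for 1, so no positions are given. Levels were not compared per length.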

Additional observations from a re-analysis of the deposited data

How the results depend on the processing

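In CLIPPARE, 4 members and 471 transcripts were higher and 111 transcripts lower in Zuc KD. Without a filter this became 0 members, 44 higher and 1 lower, with a filter of 20 RPM (2 members tested) 0 members, 153 and 58, and with centring 2 members and 570 lower. With edgeR 549 were lower, and with DESeq2 1 member was higher, with 233 transcripts higher and 436 lower. Leaving out 1 library gave 0 to 17 members, 14 to 1817 transcripts higher and 0 to 650 lower, the lone library of a group being assumed to vary like the others. The median change of the members, 0.73, was 0.40 with centring and 0.41 to 1.08 with 1 library left out. Rpn9 changed sign with centring (−0.13), edgeR (−0.14) and DESeq2 (−0.19). With 1 library left out it ran from −0.49 to 0.90, Prosbeta3 from −0.23 to 1.31 and Prosalpha7 from −0.026 to 1.69, each lowest without control KD replicate 1 and highest without control KD replicate 2. The causes were not tested. With the replicate block, 4 members were called and 453 transcripts were higher and 92 lower, and no call of a member changed.

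The median log2 ratio of the members in Yb KD Armi iCLIP, 2.13, was 2.28 and 1.61 with pseudocounts of 0.1 and 5 RPM, 2.02 without a filter, 2.24 with a filter of 20 RPM and 0.55 relative to the table median. In Yb KD Piwi small RNA it was 1.95 with 5 RPM and 0.40 relative to the table, where Rpn7 was at −0.24. For D862A it was 3.63 and 2.95 with the pseudocounts and 1.75 relative to the table, and for R949A 3.61, 2.67 and 1.65, with 3.56 at 20 RPM. Relative to the table, Rpt3 was −0.45 on D862A and −0.49 on R949A. Untreated Piwi over Armi gave −0.61 with 5 RPM and −0.34 relative to the table, and no member reached 20 RPM there. For D862A over R949A the settings were chosen after seeing the data and the median stayed between 0.18 and 0.21.

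The Piwi knockdown columns limit single members, since 112 reads carry all 30 in control KD. The 1-column comparisons cannot show spread between cultures.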
